A study of Mus musculus with 16 samples.

Results

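Whether mouse myoblasts changed differently between 48 and 72 hr when they stayed on the muscle fiber than when they were grown off it was measured on 16 one-color Agilent arrays, 4 for each combination of culture and time. All 16 samples of the series were used, chosen by their culture and time labels alone. The myoblasts came from satellite cells of male C57Bl/6J mice aged 11 to 13 weeks, all wild type as far as the labels say and with no agent compared. For dispersed myoblasts, cells of 1 mouse per preparation were plated on gelatin without their fibers. Myofiber-associated myoblasts stayed on explanted fibers of 2 mice per preparation until trypsin released them, and 1 of the 4 samples at 48 hr (replicate 4, by its title) was a pool of 2 preparations. The quantity described for each gene is the interaction, which is the log2 change from 48 to 72 hr in dispersed myoblasts minus the same change in myofiber-associated myoblasts. A value above 0 says that the gene changed more upward, or less downward, in dispersed myoblasts, and a value below 0 says the same of myofiber-associated myoblasts.

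Satellite cells are the stem cells of skeletal muscle and lie between the fiber and its basal lamina. After isolation they enter the cell cycle as myoblasts, and then either differentiate, making sarcomere proteins and fusing, or return to quiescence as reserve cells. Notch, Wnt, fibroblast growth factor and matrix signals from the fiber are known to bear on that choice. An interaction over culture and time separates genes whose course over this interval depended on the culture from genes that merely sat at different levels in the cultures or moved alike in both.

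The satellite cell genes Pax7 and Myf5 were well above background on all 16 arrays. So were the defining markers of other cells, Pecam1 and Cdh5 of endothelium, Pdgfra of fibroblasts and Cd68 of macrophages. The mean log2 signal of 23 adult fiber isoforms, which mature fibers make, lay between 14.56 and 15.53 on the 48-hr and between 11.92 and 14.03 on the 72-hr myofiber-associated arrays, against 9.27 to 10.15 and 8.09 to 8.66 on the dispersed arrays. The labels state that checks of the preparations found no fiber RNA. At 72 hr the mean was 12.17 and 11.92 in myofiber-associated replicates 1 and 3 and 13.60 and 14.03 in replicates 2 and 4. The mean of 25 endothelial genes ran from 12.31 to 12.79 and then 10.82 to 11.31 in dispersed, and from 9.39 to 10.55 and then 7.51 to 8.56 in myofiber-associated cultures. In such bulk samples fewer cells of a type and less RNA per cell cannot be told apart. The 8 myofiber-associated arrays shared slide 1 and the 8 dispersed arrays slide 2, so the culture and its slide cannot be told apart, and on both slides the 72-hr arrays lay in columns 1 and 2 and the 48-hr arrays in columns 3 and 4, so neither can time and slide position.

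**Figure D1:**
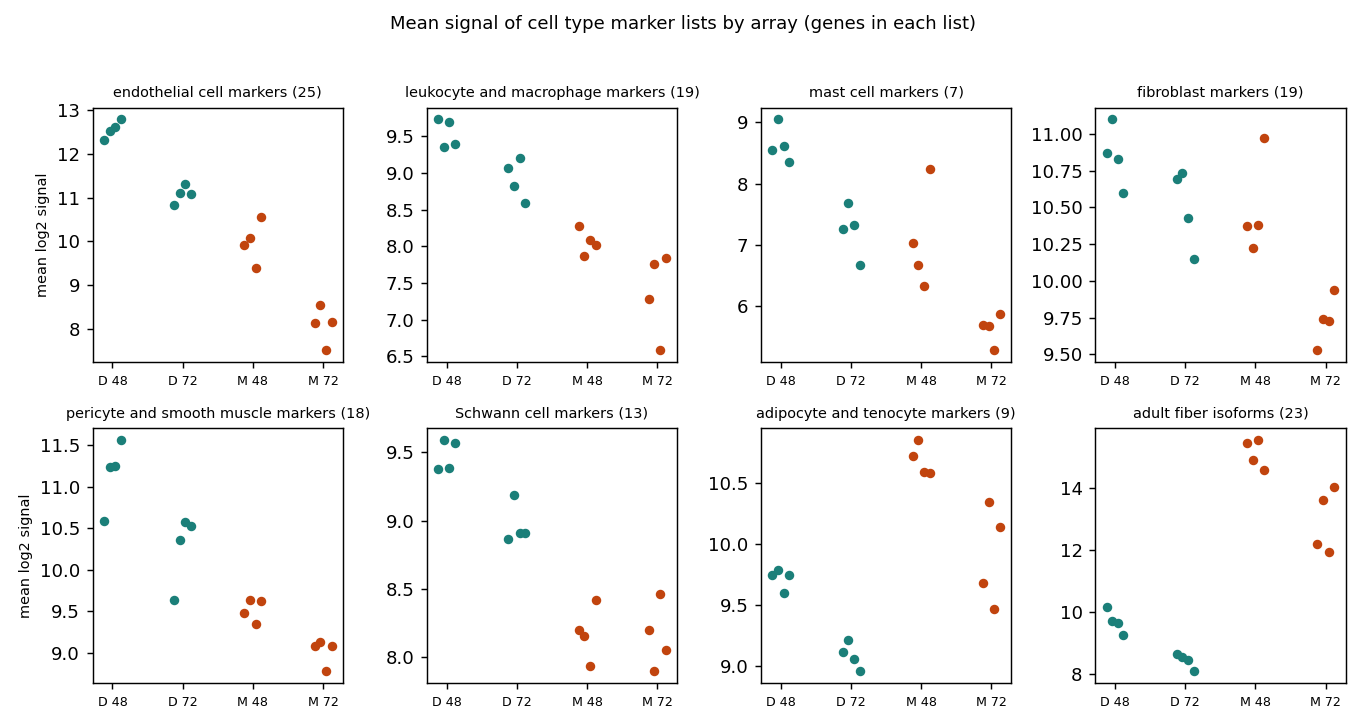
Mean normalized log2 signal (vertical axes) of 7 lists of markers of other cell types and of adult fiber isoforms on each of the 16 arrays, as points in 4 columns (D dispersed, M myofiber-associated, 48 and 72 hr), with the number of genes of each list in its title. Endothelial and adult fiber genes were lower at 72 hr than at 48 hr in both cultures, and adult fiber isoforms were higher on every myofiber-associated array than on any dispersed array.

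The myofiber-associated arrays varied more than the dispersed ones, with a median SD of a gene over 4 replicates of 0.22 at 48 hr and 0.18 at 72 hr against 0.09 and 0.10. Myofiber-associated 48-hr replicate 4, the pool, stood farthest from its group, with 1474 genes more than 1 log2 unit from the mean of the other 3 arrays, against 169 to 446 for those. Leaving it out raised the number of genes called for the interaction from 701 to 2357, and leaving out myofiber-associated 72-hr replicate 4 raised it to 1757. Without both, 4642 of 20273 genes were called, 2006 above 0 (9.89%) and 2636 below 0 (13.0%), and 693 of the 701 were among them. These 2 arrays were chosen because the count rose without them, so list counts without them, given below, are a description. Each such count is to be read against the 9.89% and 13.0% of all genes. Some lists held fewer genes in that fit, among them Wnt (35 genes), interferon-stimulated (37), neuromuscular junction (15), glycogen (22) and atrophy (29). Leaving out any of the 8 dispersed arrays gave 292 to 522 genes.

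**Figure D2:**
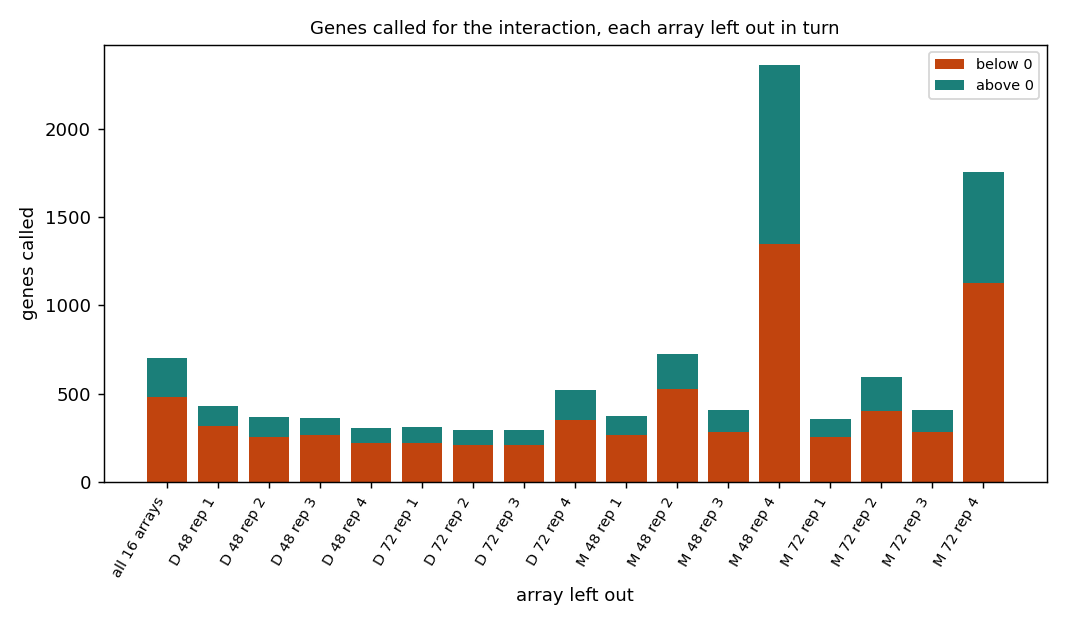
Number of genes called for the interaction (vertical axis, adjusted p under 0.01, stacked by sign) with all 16 arrays and with each array left out in turn (D dispersed, M myofiber-associated). The bars ran from 292 genes without dispersed 72-hr replicate 2 to 2357 without myofiber-associated 48-hr replicate 4, and in every bar more genes were below 0 than above.

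Of 20317 genes tested, 701 (3.45%) differed in their time change between the cultures (limma, Benjamini-Hochberg adjusted p under 0.01 over all genes tested). The time change was higher in dispersed myoblasts for 220 genes (1.08%) and higher in myofiber-associated myoblasts for 481 (2.37%). Counts of called list members below, with all 16 arrays, are to be read against these shares. Below, interactions are given ± SE from limma over all 16 arrays with its adjusted p, signals are normalized log2 values, and changes off and on the fiber are those of dispersed and myofiber-associated myoblasts. Over all genes tested the median interaction was -0.07, so the larger number below 0 stood on a small general shift in that direction. Of all genes tested 56.99% had an interaction below 0. An unadjusted p under 0.05 (limma) was held by 6974 of the 20317, and list counts at that level are to be read against this. Calls rested on few arrays. In all 16 fits that left out 1 array, 262 of the 701 genes passed, and 213 passed in 4 or fewer of them. Of 115 called genes named by rule below, 46 passed under every alternative run that held them, 69 lost the call under at least 1 and 0 changed sign. Not every gene was held by every run. Diras2 was tested in 27, Aqp5, Plb1 and Plekhs1 in 26, Alpk2 in 18 and Lgr5 in 16.

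The 701 genes fell into 4 patterns, by the culture with the larger change and its sign. The largest, with 374 genes, was led by a rise in myofiber-associated myoblasts, with a median change of 1.24 there and 0.02 in dispersed. A further 171 genes were led by a fall in myofiber-associated myoblasts (median -0.93, against 0.20), 107 by a fall in dispersed myoblasts (-0.95, against 0.20 in myofiber-associated) and 49 by a rise in dispersed myoblasts (0.89, against -0.45). Signs were opposite in the cultures for 179, 145, 71 and 45 of these genes, in the same order. Time changes were also tested within each culture on its 8 arrays, where 1498 genes rose (7.37%) and 1291 fell (6.35%) in dispersed and 759 rose (3.74%) and 355 fell (1.75%) in myofiber-associated myoblasts. By those tests 97 of the 701 genes changed the same way in both cultures, 9 changed in opposite directions, 185 passed in dispersed myoblasts alone, 233 in myofiber-associated myoblasts alone and 177 in neither. With the time changes taken from the fit of all 16 arrays the same counts were 55, 25, 92, 496 and 33, so which culture's change passed depended on the fit.

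**Figure D3:**
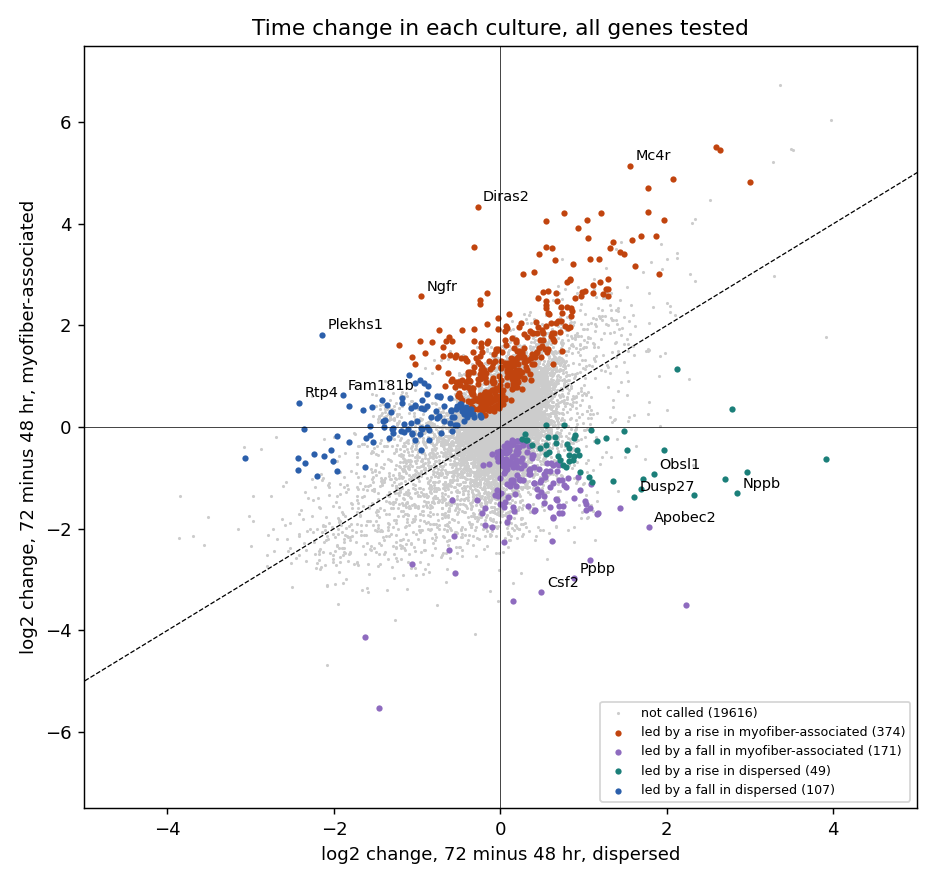
Log2 change from 48 to 72 hr in dispersed (horizontal) against myofiber-associated myoblasts (vertical) for the 20317 genes tested, with the 701 called for the interaction colored by pattern and the dashed line marking equal change. The called genes lie away from the line, with 374 led by a rise in myofiber-associated myoblasts above it, and 3 genes named in each pattern.

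The 9 genes that passed the test in both cultures with opposite signs had 48- and 72-hr arrays that overlapped in neither culture. Passing those tests nearly fixes this, and it was not particular to the 9. In the leading culture it held for 367 of 374 and 154 of 171 called genes led by a rise and a fall in myofiber-associated myoblasts. For those led by a rise and a fall in dispersed myoblasts it held for 47 of 49 and 107 of 107. The same share over all genes tested is not given here, so these counts describe the called genes alone. Fndc5, the precursor of the muscle-secreted peptide irisin, went from 6.48 ± 0.41 to 7.51 ± 0.22 (mean ± SD of log2 signal, n = 4) in dispersed and from 11.58 ± 0.34 to 10.06 ± 0.46 in myofiber-associated myoblasts (interaction 2.55 ± 0.34, adjusted p = 0.000976). Fam134b, a receptor for turnover of the endoplasmic reticulum, behaved likewise, with changes of 0.79 off and -1.18 on the fiber (interaction 1.97 ± 0.24, adjusted p = 0.000481). The other 7 fell in dispersed and rose in myofiber-associated myoblasts. Among them the T-box transcription factor Tbx2 fell from 8.39 ± 0.43 to 7.18 ± 0.36 and rose from 6.55 ± 0.10 to 8.16 ± 0.41 (interaction -2.83 ± 0.33, adjusted p = 0.00046). Gpr56, an adhesion receptor, went from 11.00 ± 0.15 to 10.31 ± 0.24 and from 8.49 ± 0.21 to 9.89 ± 0.18 (interaction -2.08 ± 0.19, adjusted p = 0.000147). The 72-hr means of Gpr56 thus lay closer together than its 48-hr means. The Wnt receptor Fzd6 changed by -1.03 off and 1.24 on the fiber, the semaphorin Sema6b by -0.58 off and 1.69 on the fiber, and the mitochondrial carrier Ucp2 by -0.69 off and 1.57 on the fiber. Sncg, gamma-synuclein, changed by -0.82 off and 1.67 on the fiber, and Ehbp1 by -0.34 off and 0.76 on the fiber.

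The rule that picked the genes named by pattern required times apart in the leading culture, so that separation is no result. Among genes led by a rise in myofiber-associated myoblasts, the largest interaction was that of Diras2, a small GTPase of the Ras family (probe at chr13:52599744-52599802, mm9). Its log2 signal was 4.90, 4.69, 4.79 and 4.56 on the 4 myofiber-associated arrays at 48 hr and 9.90, 8.84, 9.32 and 8.22 at 72 hr. On the dispersed arrays it was 5.12, 5.24, 4.94 and 5.64 at 48 hr and 4.93, 5.25, 5.11 and 4.56 at 72 hr. All 4 myofiber-associated arrays at 72 hr stood above the other 12, and the dispersed time points overlapped (interaction -4.61 ± 0.39, adjusted p = 0.000147). Mc4r, a melanocortin receptor, measured 4.04, 5.48, 4.71 and 5.71 and then 11.00, 9.84, 10.36 and 9.34 in myofiber-associated myoblasts, against 5.06, 5.43, 5.11 and 5.14 and then 6.69, 6.76, 6.51 and 6.99 in dispersed. It rose in both cultures without overlap, by 1.55 off and 5.15 on the fiber (interaction -3.59 ± 0.50, adjusted p = 0.00108). Ngfr, the low-affinity neurotrophin receptor and a Schwann cell marker, went the other way in dispersed myoblasts, from 11.80, 12.02, 11.70 and 12.14 to 10.75, 11.27, 10.90 and 10.94. In myofiber-associated myoblasts it measured 8.18, 8.49, 7.55 and 10.06 at 48 hr and 11.96, 10.77, 11.07 and 10.77 at 72 hr. The pooled replicate was the highest of its group at 10.06, yet the time points did not overlap in either culture (interaction -3.52 ± 0.57, adjusted p = 0.00254). The mean of 13 Schwann cell markers lay between 7.94 and 8.42 at 48 hr and between 7.90 and 8.47 at 72 hr on the myofiber-associated arrays, and the part of these cells in the Ngfr result was not tested.

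Aqp5, a water channel, rose from a range of 4.62 to 5.12 to one of 8.38 to 10.24 in myofiber-associated myoblasts and from 4.78 to 5.37 to 5.54 to 5.97 in dispersed (interaction -3.45 ± 0.46, adjusted p = 0.000976). The myosin regulatory light chain Myl9 measured 11.35, 12.14, 11.68 and 11.81 at 48 hr and 15.77, 14.76, 15.84 and 14.75 at 72 hr in myofiber-associated myoblasts. In dispersed myoblasts it was high at both times and the time points overlapped, from 14.95 to 15.73 at 48 hr and from 15.49 to 16.19 at 72 hr (interaction -2.99 ± 0.39, adjusted p = 0.000684). Pnmal2 changed by 0.94 off and 3.92 on the fiber (interaction -2.98 ± 0.28, adjusted p = 0.000147). The stem cell receptor Lgr5, which binds R-spondins, was well above background on 0 of 4 myofiber-associated arrays at 48 hr and on all 4 at 72 hr, so its rise there was at least 5.95-fold, and in dispersed myoblasts its log2 change was 1.04 (interaction -3.03 ± 0.36, adjusted p = 0.000481). Aldh1a7, an aldehyde dehydrogenase, was likewise not well above background at 48 hr in myofiber-associated myoblasts and rose there at least 3.92-fold, while its dispersed arrays overlapped (interaction -3.85 ± 0.71, adjusted p = 0.00482). With the normexp background correction, in a run that tested 34836 genes, both calls were lost, at -0.83 for Lgr5 and -1.14 for Aldh1a7 (limma adjusted p = 0.0217 and 0.0719). Each bound sets the bright mean against the dim group's mean of, on each array, the higher of the weakest signal well above background and the gene's own signal.

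**Figure D4:**
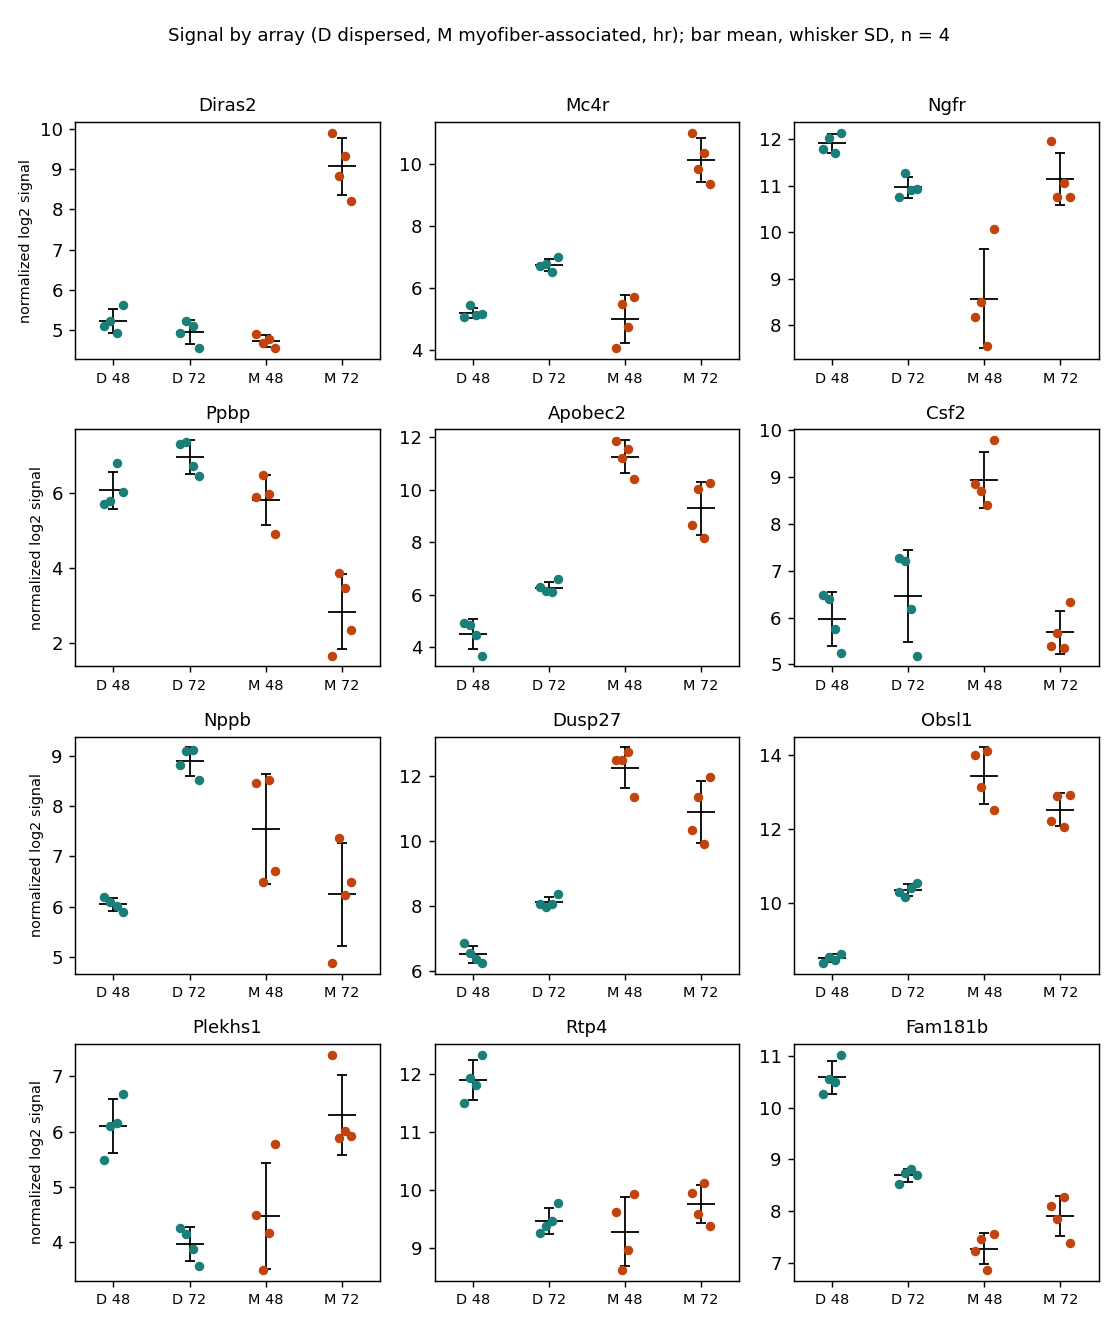
Normalized log2 signal (vertical axes) on each of the 16 arrays for the 3 genes of largest interaction in each of the 4 patterns by the rule for naming, 1 pattern a row, with the mean (bar) and SD (whisker, n = 4). Diras2 stood at 8.22 to 9.90 on the 72-hr myofiber-associated arrays and at 4.56 to 5.64 on all others, and Rtp4 fell in dispersed myoblasts to the range it held in myofiber-associated myoblasts.

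Genes of satellite cell quiescence and identity were the list with the largest share called, 8 of 30, all below 0. Their median change was 0.04 for dispersed and 0.45 for myofiber-associated myoblasts. Sox8, a transcription factor that restrains differentiation, changed by -0.24 off and 2.49 on the fiber (interaction -2.73 ± 0.55, adjusted p = 0.00764). Sox8 was well above background on 1 of 4 myofiber-associated arrays at 48 hr, and with normexp its interaction was -0.73 (adjusted p = 0.0396). Fgfr4, a receptor of the fibroblast growth factors, changed by 0.10 off and 2.22 on the fiber (interaction -2.12 ± 0.29, adjusted p = 0.00109). The chemokine receptor Cxcr4 moved from 8.2 ± 0.49 to 9.26 ± 0.19 in myofiber-associated and from 9.13 ± 0.30 to 8.50 ± 0.27 in dispersed myoblasts (interaction -1.69 ± 0.31, adjusted p = 0.00438). Megf10, Pax7, Gas1, Sdc3 and Hey1 completed the 8, and Hey1 alone was led by a fall in dispersed myoblasts. Without both replicates 4, 1 above and 11 below 0 were called. Several of these genes were singled out in the study from the same arrays, so their direction here is no independent evidence. For Gas1 1 of 3 probes showed almost no interaction (0.07), against -1.09 for the brightest.

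In the Notch pathway, in which neighboring cells hold progenitors undifferentiated, 4 of 25 genes were called, all below 0. Lfng, a glycosyltransferase that tunes Notch receptors, changed by -0.32 off and 1.69 on the fiber (interaction -2.0 ± 0.32, adjusted p = 0.00224). The receptor Notch3 changed by -0.22 off and 1.49 on the fiber (interaction -1.71 ± 0.30, adjusted p = 0.00389). The target Hey1 changed by -1.82 off and -0.28 on the fiber, and the list member Hes6, not counted here as a target, by 1.12 off and 2.65 on the fiber. Of the Wnt pathway 8 of 37 were called, in both directions. The ligands Wnt9a (0.63 and -1.10, interaction 1.73 ± 0.25, adjusted p = 0.00138) and Wnt5a (0.41 and -0.79, adjusted p = 0.00132) and the secreted inhibitor Dkk2 (0.79 and -0.79, adjusted p = 0.00881) lay above 0, with the changes in dispersed and then myofiber-associated myoblasts in parentheses. Below 0 were the receptors Lgr5 and Fzd6 and, with smaller values, the ligand Wnt6 and the nuclear factors Tcf7 (0.06 and 1.25, adjusted p = 0.00102) and Tcf7l1 (0.37 and 1.36, adjusted p = 0.0039). Without both replicates 4 the Notch list gave 1 above and 7 below 0 and the Wnt list 5 above and 8 below 0.

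Axon guidance cues and receptors, which also steer myoblast migration and nerve contact, had 5 of 55 called, all below 0 and all led by a rise in myofiber-associated myoblasts. They were Sema6b, Sema3e (1.19 and 3.31, interaction -2.12 ± 0.37, adjusted p = 0.00347), Sema6a, and the ephrin receptors Epha1 (1.59 and 3.67, adjusted p = 0.00986) and Ephb4. At the neuromuscular junction 3 of 16 were called. Utrn, the synaptic relative of dystrophin, and Chrna1, an acetylcholine receptor subunit, lay below 0 at -1.94 and -0.88, and the receptor kinase Musk above it at 1.31 (adjusted p = 0.00251, 0.00526 and 0.00975). With the mean of all probes Utrn gave -1.05 (adjusted p = 0.0105), and with normexp Sema3e gave -1.31 (adjusted p = 0.0126), so neither passed there. In the fusion list 2 of 26 were called, the adhesion molecule Jam2 (0.72 and 1.88, adjusted p = 0.00254) and Boc (-0.22 and 0.59, adjusted p = 0.00333), both below 0. Without both replicates 4 the axon guidance list gave 3 above and 20 below 0, the junction list 2 and 4 and the fusion list 3 and 6.

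Of the G1 cyclins, kinases and inhibitors 4 of 27 were called, and all 4 rose in both cultures and rose more in myofiber-associated myoblasts. The inhibitor gene Cdkn2a changed by 1.11 off and 2.79 on the fiber (interaction -1.68 ± 0.31, adjusted p = 0.00471). Cdkn2b, whose product blocks cyclin D kinases, changed by 0.85 off and 2.18 on the fiber (interaction -1.33 ± 0.25, adjusted p = 0.00533). The cyclin Ccnd3 went from 13.78 ± 0.23 to 15.49 ± 0.33 in myofiber-associated and from 14.61 ± 0.05 to 15.11 ± 0.12 in dispersed myoblasts (interaction -1.20 ± 0.20, adjusted p = 0.00283), and Skp2, a subunit of the ligase that degrades cell cycle inhibitors, changed by 0.30 off and 1.17 on the fiber. Interactions of mitosis and G2/M genes were below 0 for all 37 measured, and for 38 of 39 DNA replication genes, against 56.99% of all genes. Their medians were -0.31 and -0.27 against -0.07 over all genes. Of these, the phosphatase Cdc25b (0.16 and 1.06, interaction -0.90 ± 0.19, adjusted p = 0.00934) passed, and 0 of the 39 DNA replication genes did in limma, with 13 at an unadjusted p under 0.05 and the largest interaction that of the ligase Lig1 at -0.52 (adjusted p = 0.0692). Over all genes 6974 of 20317 had an unadjusted p under 0.05 (limma). Without both replicates 4 the mitosis list gave 0 above and 14 below 0, the replication list 0 above and 10 below 0 and the G1 list 2 above and 8 below 0. Of 26 p53 target genes 0 were called and 12 had an unadjusted p under 0.05 (limma), the largest interaction being that of Gadd45a at 1.87 (adjusted p = 0.0309), and 8 above and 3 below 0 were called without both replicates 4.

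The pattern led by a fall in myofiber-associated myoblasts included secreted signals. Ppbp, a chemokine of the CXC family (probe at chr5:91198970-91199029, mm9), measured 5.87, 6.46, 5.97 and 4.89 at 48 hr and 1.66, 3.85, 3.45 and 2.35 at 72 hr in myofiber-associated myoblasts. In dispersed myoblasts it measured 5.69, 5.78, 6.77 and 6.01 and then 7.29, 7.36, 6.70 and 6.43. It was well above background on 1 of the 4 low arrays, and the dispersed time points overlapped (interaction 3.86 ± 0.63, adjusted p = 0.0027). Csf2, the cytokine GM-CSF, measured 8.85, 8.70, 8.40 and 9.79 at 48 hr and 5.38, 5.66, 5.34 and 6.34 at 72 hr in myofiber-associated myoblasts. Its dispersed arrays lay between 5.19 and 7.28 and the times overlapped (interaction 3.75 ± 0.63, adjusted p = 0.00312). Tslp, a cytokine of epithelia and stroma, went from 10.06 ± 0.97 to 8.47 ± 0.57 in myofiber-associated and from 8.46 ± 0.25 to 9.90 ± 0.40 in dispersed myoblasts (interaction 3.03 ± 0.56, adjusted p = 0.00495). In myofiber-associated myoblasts its 48-hr arrays included the pooled replicate at 11.44, and the interaction without both replicates 4 was 2.64. Csf2 and Tslp were the 2 called of 37 interleukin and IL-6 family genes, and Ppbp, Cxcl12 and Cxcr4 the 3 called of 30 chemokines and receptors. Cxcl12 had the opposite sign (interaction -1.47, adjusted p = 0.00376), and its probes differed, from -1.47 to -0.50. The interleukin list without both replicates 4 gave 7 above and 4 below 0 and the chemokine list 5 and 3.

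Apobec2, a muscle-enriched member of a cytidine deaminase family, measured 11.86, 11.20, 11.56 and 10.40 and then 8.67, 10.03, 8.17 and 10.27 in myofiber-associated myoblasts, and 4.92, 4.86, 4.48 and 3.68 and then 6.29, 6.12, 6.10 and 6.58 in dispersed. The cultures moved apart in direction with no overlap of times in either, which the rule for naming required of the leading culture (interaction 3.76 ± 0.62, adjusted p = 0.00281). In myofiber-associated myoblasts at 72 hr replicates 2 and 4, those with the higher adult fiber signal, were the higher pair. Apobec2 was well above background on 2 of the 4 dispersed arrays at 48 hr. Plb1, a phospholipase, changed by 1.08 off and -2.61 on the fiber and was well above background on 1 of 4 myofiber-associated arrays at 72 hr (interaction 3.69 ± 0.53, adjusted p = 0.00132). Clip4, a microtubule-binding protein, changed by 0.63 off and -2.24 on the fiber, with its 5 probes between 2.11 and 2.86 (interaction 2.86 ± 0.54, adjusted p = 0.00509). Itgbl1, an integrin beta-like protein, was well above background on 0 of 4 myofiber-associated arrays at 72 hr, a fall of at least 2.11-fold (interaction 1.79 ± 0.34, adjusted p = 0.00524), and with normexp its interaction was 0.15 (adjusted p = 0.533).

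Hypoxia-inducible genes outside glycolysis had 3 of 26 called, all above 0 and led by a fall in myofiber-associated myoblasts. Among them the vasodilator peptide Adm went from 8.74 ± 0.47 to 7.75 ± 0.16 in myofiber-associated and from 11.37 ± 0.16 to 12.30 ± 0.27 in dispersed myoblasts (interaction 1.92 ± 0.28, adjusted p = 0.00131). Egln1, the oxygen-sensing hydroxylase, changed by 0.01 off and -1.30 on the fiber (interaction 1.31 ± 0.26, adjusted p = 0.00646). The immediate early list, genes induced within minutes of growth factor or serum, had 2 of 29 called, Ctgf (0.49 and -1.04, interaction 1.53 ± 0.27, adjusted p = 0.00373) and Cyr61 (0.25 and -0.66, interaction 0.91 ± 0.15, adjusted p = 0.00283), which code for matricellular proteins rather than transcription factors. Of its 29 genes 27 had an interaction above 0, and without both replicates 4 the list gave 14 above and 0 below 0 and the hypoxia list 8 and 0.

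Matrix and adhesion genes split by gene. The basement membrane receptor subunits Itgb4 (1.69 and 3.77, interaction -2.08 ± 0.43, adjusted p = 0.0086) and Itga6 (-0.15 and 1.69, interaction -1.84 ± 0.33, adjusted p = 0.00389) and the laminin chain Lama5 (-0.41 and 0.89, adjusted p = 0.00334), 3 of 30 integrin and laminin subunits, were below 0, though the second probe of Itga6 gave -0.06 and the mean of its probes -0.95 (adjusted p = 0.0215). The list's median interaction was 0.15, and without both replicates 4 it gave 6 above and 4 below 0. Col26a1, 1 of 29 collagen chains, rose by 3.05 in myofiber-associated myoblasts (interaction -2.64 ± 0.33, adjusted p = 0.000616). Above 0 were the crosslinking enzyme Loxl4, 1 of 21 (interaction 2.30 ± 0.27, adjusted p = 0.000481), and the glycoprotein Tnc (interaction 1.46 ± 0.25, adjusted p = 0.00334), both lower at 72 hr in myofiber-associated and higher in dispersed myoblasts by their means. The proteoglycan Ogn lay below 0 (interaction -0.93 ± 0.19, adjusted p = 0.00785), which with Tnc made 2 of 41 of that list. Of the metalloproteinase list 4 of 37 were called, among them Adamts8 above and Timp4 and Mmp15 below 0. The other probe of Adamts8 gave -0.02. Among cadherins 3 of 23 were called, all below 0 (Dchs1, Pcdh17 and Ctnnb1), and of the syndecan list Sdc3 alone of 27. The counts above and below 0 without both replicates 4 were 4 and 2 for collagens, 5 and 4 for crosslinking, 4 and 3 for glycoproteins, 3 and 6 for metalloproteinases, 1 and 7 for cadherins and 0 and 7 for syndecans. In that fit 9.89% of all genes were called above and 13.0% below 0.

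Further growth factor lists held few calls. In the TGF-beta and BMP list 4 of 45 passed, all below 0. They were the activin subunit Inhbb (-1.54 and 0.39, interaction -1.93 ± 0.31, adjusted p = 0.00213), the inhibitory Smad6 (-0.88 and 0.00, adjusted p = 0.00629), the target Id3 (0.18 and 0.79, adjusted p = 0.00251) and the latency protein Ltbp3 (0.28 and 0.95, adjusted p = 0.00508). The PDGF and VEGF list had 3 of 22, with Pdgfra (0.33 and -1.54, adjusted p = 0.00987) and Angpt2 (-0.55 and -2.14, adjusted p = 0.00874) above and the coreceptor Nrp1 (-0.49 and 0.46, adjusted p = 0.00898) below 0. Fgfr4 was the 1 called of 34 FGF and HGF genes, Igfbp4 (-0.97) the 1 of 23 of the IGF axis, and 0 of the 12 EGF family genes passed (limma, 5 at an unadjusted p under 0.05), the largest interaction being that of Hbegf at 1.48 (adjusted p = 0.022). Of 16 prostaglandin and nitric oxide genes the leukotriene enzyme Alox5 (1.49 and 3.41, adjusted p = 0.00853) and Ptges (0.04 and -0.37, adjusted p = 0.00667) passed, with opposite signs, though the mean of its probes left Ptges at 1.01 (adjusted p = 0.0527). These growth factor lists without both replicates 4 gave 3 and 7 for TGF-beta, 2 and 4 for PDGF and VEGF, 2 and 6 for FGF, 2 and 3 for IGF, 2 and 0 for EGF and 3 and 1 for prostaglandin genes above and below 0. The shares of all genes in that fit were 9.89% above and 13.0% below 0.

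Genes led by a rise in dispersed myoblasts were fewest. Nppb, the natriuretic peptide BNP (probe at chr4:147360489-147360548, mm9), measured 6.19, 6.10, 6.02 and 5.88 at 48 hr and 8.81, 9.10, 9.12 and 8.52 at 72 hr in dispersed myoblasts. In myofiber-associated myoblasts it measured 8.47, 6.49, 8.52 and 6.71 and then 4.88, 7.37, 6.23 and 6.50. The dispersed times were fully apart, as the rule for naming required, while the myofiber-associated times overlapped (interaction 4.14 ± 0.71, adjusted p = 0.00328). Slc1a6, a glutamate transporter, measured 5.75, 6.31, 5.72 and 6.27 and then 8.2, 9.31, 8.93 and 8.78 in dispersed, and stayed between 4.82 and 5.69 on the 8 myofiber-associated arrays (interaction 2.44 ± 0.33, adjusted p = 0.001). All 8 of those values lay below the lowest dispersed value at 48 hr. Igdcc4, an immunoglobulin superfamily receptor, went from 8.62 ± 0.07 to 10.33 ± 0.28 in dispersed but from 12.64 ± 0.66 to 11.62 ± 0.14 in myofiber-associated myoblasts, where both means were higher (interaction 2.73 ± 0.34, adjusted p = 0.000616). Shisa2, a regulator of Wnt and FGF receptor traffic, changed by 1.97 off and -0.45 on the fiber (interaction 2.42 ± 0.33, adjusted p = 0.00108), and Dusp27, a muscle protein of the phosphatase family, by 1.60 off and -1.37 on the fiber (interaction 2.98 ± 0.54, adjusted p = 0.00447). For Obsl1, a cytoskeletal linker, the brightest probe gave 2.77 ± 0.42 (adjusted p = 0.00156) and the other 0.34. The muscle kinase family member Alpk2 and the epidermal gene Lce1e were not well above background on any dispersed array at 48 hr, and their rises there were at least 1.33- and 3.11-fold.

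Genes of muscle structure lay above 0 in several lists. Of 37 sarcomere scaffold and Z-disc genes 34 had an interaction above 0, with a median of 1.54, and 4 were called. They were Myom3 of the M-band (2.96 and -0.89, interaction 3.85 ± 0.41, adjusted p = 0.000269), Obsl1, Synpo2 (interaction 2.42 ± 0.38, adjusted p = 0.00216, other probe 0.18, mean of probes 1.09 with adjusted p = 0.0229) and the stress-responsive Ankrd1 (interaction 0.91 ± 0.18, adjusted p = 0.00751). Excitation-contraction coupling, the link from membrane voltage to calcium release, had 4 of 28 called, all above 0. The calcium release channel Ryr1 changed by 1.17 off and -1.69 on the fiber (interaction 2.86 ± 0.54, adjusted p = 0.00529), Stac3 by 1.52 off and -0.45 on the fiber (interaction 1.97 ± 0.36, adjusted p = 0.00437), and Jph2 and Bin1, which shape the triad and its tubules, by 0.77 and 0.39 in dispersed against -1.13 and -0.55 in myofiber-associated myoblasts. Actc1 passed of 16 developmental isoforms (interaction 2.90 ± 0.62, adjusted p = 0.00995), of which 8 lay below 0 and the median was 0.06, and Myl3 and Myl2 of 23 adult fiber isoforms (interaction 4.06 ± 0.77, adjusted p = 0.0053, and interaction 2.51 ± 0.47, adjusted p = 0.00507). The median changes of these lists in myofiber-associated myoblasts were -1.71 for the Z-disc, -1.12 for coupling and -2.10 for adult isoforms, together with the fall of the mean adult fiber signal given above, and the part of fiber RNA in these results was not tested. Without both replicates 4 the Z-disc list gave 18 above and 1 below 0 of 34 genes and the coupling list 15 above and 1 below 0 of 27. The counts were 4 and 1 of 15 developmental and 8 and 0 of 23 adult isoforms.

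The E-box CAGCTG, a letter string that myogenic factors such as MyoD bind, was searched in the 250 bases before the start of RefSeq genes on GRCm38.p6 (the string is its own reverse complement, so 1 search covers both strands). A gene with several starts was counted if any of its windows held the string. It stood in 14.7% of all 27025 genes with a promoter and in 20.7% of the 474 called genes with one. It stood in 10 of 25 Z-disc, 7 of 17 coupling, 6 of 15 developmental isoform and 8 of 17 adult isoform genes. By pattern the shares were 19.1% for a rise in myofiber-associated, 21.6% for a fall there, 22.9% for a rise in dispersed and 23.9% for a fall in dispersed myoblasts. A match is a description of the letters and not a binding site. Shown are genes named here that hold the string while differing in pattern, with the string in capitals. Diras2, Ngfr and Chrna1 were led by a rise and Apobec2 by a fall in myofiber-associated myoblasts, and Nppb and Dusp27 by a rise in dispersed myoblasts.
Diras2, chr13:52530837-52531086, minus strand: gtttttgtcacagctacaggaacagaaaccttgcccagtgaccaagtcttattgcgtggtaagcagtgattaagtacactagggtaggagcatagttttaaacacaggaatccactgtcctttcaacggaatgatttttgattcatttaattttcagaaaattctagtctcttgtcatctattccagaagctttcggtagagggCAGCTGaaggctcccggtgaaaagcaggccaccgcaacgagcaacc
Ngfr, chr11:95587699-95587948, minus strand: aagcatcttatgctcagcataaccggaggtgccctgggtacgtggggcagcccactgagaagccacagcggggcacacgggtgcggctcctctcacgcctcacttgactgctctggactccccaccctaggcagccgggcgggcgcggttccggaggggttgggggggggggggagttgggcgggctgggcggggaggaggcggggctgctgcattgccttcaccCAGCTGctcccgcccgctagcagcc
Chrna1, chr2:73580339-73580588, minus strand: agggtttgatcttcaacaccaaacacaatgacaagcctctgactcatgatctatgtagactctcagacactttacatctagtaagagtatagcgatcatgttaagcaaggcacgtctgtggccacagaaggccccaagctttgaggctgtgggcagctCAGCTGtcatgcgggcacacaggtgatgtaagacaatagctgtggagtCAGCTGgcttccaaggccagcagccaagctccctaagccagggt
Apobec2, chr17:48432729-48432978, minus strand: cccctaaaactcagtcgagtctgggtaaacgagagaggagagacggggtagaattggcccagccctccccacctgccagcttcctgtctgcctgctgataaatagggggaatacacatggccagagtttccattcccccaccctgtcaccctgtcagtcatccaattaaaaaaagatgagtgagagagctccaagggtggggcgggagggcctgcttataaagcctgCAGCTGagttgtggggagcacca
Nppb, chr4:147985650-147985899, plus strand: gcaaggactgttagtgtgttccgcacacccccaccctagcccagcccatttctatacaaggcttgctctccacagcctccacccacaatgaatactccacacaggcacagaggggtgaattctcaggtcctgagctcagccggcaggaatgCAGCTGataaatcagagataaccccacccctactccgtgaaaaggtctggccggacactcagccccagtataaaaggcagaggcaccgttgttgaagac
Dusp27, chr1:166127899-166128148, minus strand: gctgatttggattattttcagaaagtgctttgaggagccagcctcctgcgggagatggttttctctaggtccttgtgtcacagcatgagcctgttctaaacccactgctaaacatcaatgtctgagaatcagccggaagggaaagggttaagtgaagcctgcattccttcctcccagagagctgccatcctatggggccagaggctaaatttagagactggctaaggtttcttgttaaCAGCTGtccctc
The first base of the last match lay between 12 (Dusp27) and 99 (Nppb) bases before the start in these genes, and Chrna1 held 2 matches.

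Genes led by a fall in dispersed myoblasts included interferon-stimulated genes, which Stat and Irf factors induce after interferon binds its receptor. Irf7, a transcription factor of that response, measured 7.50, 7.96, 7.99 and 8.42 at 48 hr and 4.72, 5.15, 5.03 and 4.72 at 72 hr in dispersed myoblasts, and 6.59, 6.14, 5.22 and 5.95 and then 5.64, 5.15, 5.02 and 5.66 in myofiber-associated. Its dispersed 48-hr arrays stood above all others and its dispersed 72-hr arrays overlapped the myofiber-associated 72-hr arrays (interaction -2.46 ± 0.37, adjusted p = 0.00151). Rtp4, an interferon-induced chaperone of receptors, measured 11.50, 11.92, 11.80 and 12.33 and then 9.26, 9.38, 9.47 and 9.78 in dispersed, and 9.62, 8.62, 8.96 and 9.93 and then 9.95, 9.59, 10.11 and 9.38 in myofiber-associated myoblasts. It fell in the one culture and overlapped between times in the other (interaction -2.90 ± 0.37, adjusted p = 0.000684). Cmpk2, a mitochondrial nucleotide kinase, changed by -2.36 off and -0.03 on the fiber (interaction -2.33 ± 0.42, adjusted p = 0.00416). These were 3 of 38 interferon-stimulated genes called. By the tests within each culture 31 of the 38 fell in dispersed and 9 in myofiber-associated myoblasts, with medians of -1.51 for dispersed and -0.82 for myofiber-associated myoblasts, while 3 differed between the cultures. Isg15, named after its values were seen, missed the threshold, with changes of -2.97 off and -1.36 on the fiber (interaction -1.61 ± 0.38, adjusted p = 0.0155), as did Oas1a, which changed almost equally at -2.55 and -2.44 (interaction -0.11 ± 0.42, adjusted p = 0.869). Without both replicates 4 the list gave 0 above and 7 below 0. GAAA followed after any 2 bases by GAAA, the core of the interferon-stimulated response element, stood on either strand in the 250-base promoters of 12 of 26 listed genes with an entry, against 3.46% of all 27025 genes with a promoter, and Irf7 and Cmpk2 held no match.

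Of 24 antigen presentation genes 4 were called, all below 0. The immunoproteasome genes Psmb9 (-1.62 and -0.21, interaction -1.41 ± 0.21, adjusted p = 0.00144) and Psme1 (-0.52 and 0.05, adjusted p = 0.0071) and the peptide transporter Tap2 (-0.47 and 0.45, adjusted p = 0.00637) were led by a fall in dispersed myoblasts, while the class II gene H2-Eb1 went from 7.2 ± 0.53 to 8.44 ± 0.27 in myofiber-associated myoblasts and changed by -0.24 in dispersed (interaction -1.49 ± 0.29, adjusted p = 0.00613). With the mean of all probes, dimmer ones included, the interaction of Psmb9 was -0.04 (adjusted p = 0.966). The antigen list without both replicates 4 gave 0 above and 9 below 0. Leukocyte markers averaged 9.36 to 9.74 and then 8.59 to 9.20 on the dispersed arrays and 7.87 to 8.28 and then 6.58 to 7.84 on the myofiber-associated arrays, and their part in these results was not tested. Outside these lists, Plekhs1 (probe at chr19:56561121-56561180, mm9) measured 5.49, 6.11, 6.16 and 6.68 and then 4.26, 4.16, 3.89 and 3.58 in dispersed, and 4.50, 3.5, 4.16 and 5.78 and then 7.39, 5.89, 6.01 and 5.91 in myofiber-associated myoblasts. Its cultures moved in opposite directions without overlap of times, which the rule for naming required of the leading culture (interaction -3.95 ± 0.61, adjusted p = 0.00193). The pooled replicate lay close to the 72-hr arrays. Plekhs1 was well above background on 1 of 4 dispersed arrays at 72 hr and on 2 of 4 myofiber-associated arrays at 48 hr. Fam181b changed by -1.90 off and 0.62 on the fiber (interaction -2.52 ± 0.28, adjusted p = 0.000363), and Bmf, a pro-apoptotic BH3-only protein, by -1.65 off and 0.33 on the fiber (interaction -1.97 ± 0.29, adjusted p = 0.00138).

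Of the 9 metabolic lists 8 held 1 to 3 called genes. None of 64 respiratory chain genes, 63 ribosomal proteins, 50 ribosome biogenesis genes and 36 cytosolic chaperones passed, with 18, 17, 9 and 12 of them at an unadjusted p under 0.05, and their largest interactions were those of Cox7a1 at 1.5, Rps15 at -0.43, Rrp1b at -0.64 and Hspb3 at 2.22 (limma, adjusted p = 0.11, 0.0341, 0.034 and 0.0554). Of all 20317 genes tested 6974 had an unadjusted p under 0.05 (limma). Counts for these lists without both replicates 4 were 9 and 3, 0 and 10, 2 and 1 and 9 and 1 above and below 0. Glycogen and phosphocreatine genes had 3 of 23 called and a median of 0.99, with the adenylate kinase Ak1 (0.75 and -0.75, interaction 1.5 ± 0.24, adjusted p = 0.00213) and the creatine transporter Slc6a8 above and the creatine-synthesis enzyme Gatm (0.21 and 1.5, adjusted p = 0.00881) below 0. Hk2, the hexokinase of muscle, was the 1 called of 30 glycolysis genes (interaction 1.80 ± 0.31, adjusted p = 0.00325). Fatty acid oxidation gave 2 of 40, Ucp2 and Cpt1a, the gate of mitochondrial fatty acid entry (interaction -1.10 ± 0.20, adjusted p = 0.00443), both led by a rise in myofiber-associated myoblasts. Single calls were Me1 of 26 tricarboxylic acid cycle genes (1.27), Mylip of 31 cholesterol genes (-1.33), Gpt2 of 31 amino acid and ATF4 genes (1.27), Lipa of 40 lysosomal genes (-0.82), Mt1 of 44 antioxidant genes (0.85, other probe -0.50), Masp1 of 19 complement genes (-1.29) and Fbxo32, the atrophy ligase, of 30 (2.41). With the mean of probes the calls of Masp1 and Mt1 were lost, at -0.63 and 0.18 (adjusted p = 0.231 and 0.551), and with normexp Masp1 gave -0.75 (adjusted p = 0.0387). Odc1 of the nucleotide and one-carbon list and Atf6 and Derl3 of 35 secretory stress genes passed too, Derl3 with the smallest adjusted p of the secretory list (interaction -1.47 ± 0.17, adjusted p = 0.000363). Among 59 channels the potassium channel genes Kcnc1 (interaction 2.19 ± 0.31, adjusted p = 0.00114) and Kcnab1 (1.52) were above and the chloride channel Ano1 (-1.64) below 0. Above and below 0, leaving out both replicates 4 gave 10 and 4 for glycolysis, 9 and 2 for glycogen, 7 and 3 for the tricarboxylic acid cycle, 7 and 5 for fatty acid oxidation, 3 and 3 for fatty acid synthesis, 1 and 5 for cholesterol, 3 and 1 for nucleotide and 6 and 4 for amino acid genes. For secretory stress, lysosome, atrophy, antioxidant, complement and channel genes it gave 4 and 5, 3 and 9, 10 and 1, 6 and 5, 0 and 2 and 10 and 8. All of these stand beside 9.89% of all genes called above and 13.0% below 0 in that fit.

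Over the 58 lists, 7 had no member called, 16 had members called above 0 and none below, 24 the reverse and 11 both. The lists held 112 of the 701 called genes, so that 6.74% of their 1661 measured genes were called against 3.45% of all genes tested. Members and lists were chosen with earlier results of these data known, so a higher share was partly built in. Of 110 marker genes of other cell types 10 were called (9.09%). Of 25 endothelial markers 24 fell in dispersed and 16 in myofiber-associated myoblasts by the tests within each culture, and Emcn was the 1 called for the interaction (interaction 2.33 ± 0.41, adjusted p = 0.00369). Of 19 fibroblast markers Pdgfra and Smoc2 (1.38) were above and Ly6a (interaction -1.63 ± 0.25, adjusted p = 0.00151) below 0. The called genes of the remaining lists were Laptm5 of 19 leukocyte markers (-1.64), Gata2 of 7 mast cell markers (-0.93), Rgs4 and Notch3 of 18 pericyte and smooth muscle markers, Ngfr of 13 Schwann cell markers and the adipocyte regulator Pparg of 9 adipocyte and tenocyte markers. Pparg fell by 1.03 in dispersed and changed by 0.43 in myofiber-associated myoblasts, with the smallest adjusted p of any list gene (interaction -1.46 ± 0.15, adjusted p = 0.000191). With normexp the calls of Emcn and Laptm5 were lost, at 1.22 and -0.97 (adjusted p = 0.0137 and 0.0339). Leaving out both replicates 4 gave 1 and 1 above and below 0 for endothelial, 0 and 1 for leukocyte, 0 and 2 for mast cell, 3 and 2 for fibroblast, 1 and 2 for pericyte, 0 and 3 for Schwann cell and 0 and 1 for adipocyte and tenocyte markers. That fit called 9.89% of all genes above and 13.0% below 0.

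**Figure D5:**
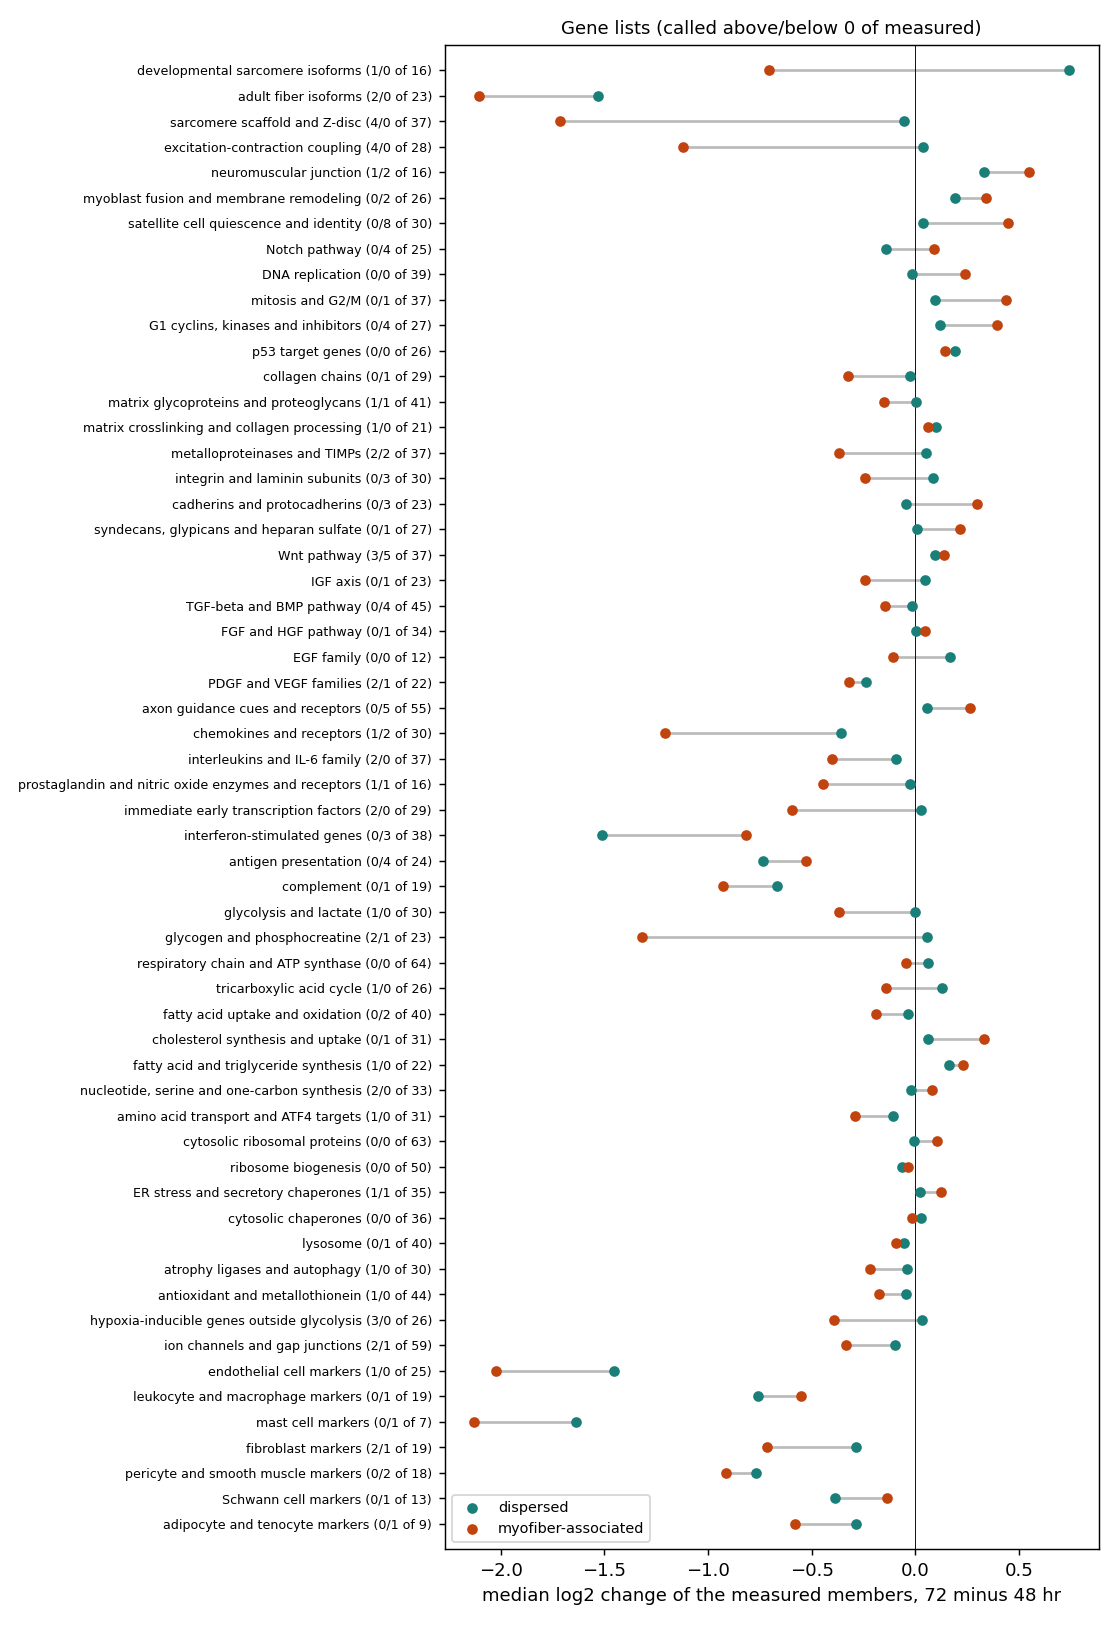
Median log2 change from 48 to 72 hr (horizontal axis) of the measured members of each of the 58 gene lists in dispersed and myofiber-associated myoblasts, joined by a line. The label of each list gives its members called above 0, called below 0 and measured, and the widest gaps are those of glycogen, Z-disc, developmental sarcomere and excitation-contraction coupling genes. A gap between medians is not a median interaction, which for the 16 developmental sarcomere genes was 0.06, with 8 of them below 0.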

How the data were processed

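RNA from 16 samples was hybridized to one-color Agilent arrays, 4 for each culture and time. The authors deposited Feature Extraction output, in which intensity (gProcessedSignal) is background-subtracted and on a linear scale, and a table of log2 ratios of 72 hr over 48 hr within each culture, normalized by the authors with probe positions on mm9. The ratio table has 8 columns, holds no 48-hr spread and was used as an alternative alone.

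Intensities were taken to log2 with outlier spots left out, fitted by loess (4 iterations at a span of 0.3), each array against its own culture's 48-hr mean, and quantile normalized over 16 arrays. Probes of 1 sequence were averaged, and of the 55681 probes the brightest of each gene name was kept. Genes whose log2 signal had a median below 5 were dropped, which left 20317 of 34836, 28 of them with a missing array, and probes counted for a gene in the text are those past the same limit. Between 55.2% and 64.3% of spots on an array were well above background and 0 were saturated, and the number of arrays limits the precision. The interaction was tested with limma 3.58.1 (R 4.3.3) in a model of 4 group means with Benjamini-Hochberg adjustment, and called at an adjusted p under 0.01. The study's methods name samr, which was not used here. The procedure was tested on simulated data.

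The replicates are separate preparations, numbered in accession order. Genes were named by rule. In each pattern these were the 6 largest interactions among called genes measured in all 4 groups with times apart in the leading culture, leaving out genes the study's text names, and up to 2 with a group not well above background. In each list these were up to 3 called members, or the member of largest interaction where 0 were called. Other list members named in the text were chosen after their values were seen. Values of a few list members are not reported here. Members and lists were chosen with earlier results of these data known. Promoters were read from RefSeq (GRCm38.p6). Alternatives tried were normexp (offset 50), quantile normalization without loess, the 75th percentile as the scale, other filters, the mean of probes, slide row as a block, array weights, a variance trend, the authors' table, each array left out and, added after seeing the data, both myofiber-associated replicates 4 left out.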

Additional observations from a re-analysis of the deposited data

Results flagged for a closer look

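The 701 genes called are themselves differences between cultures in the time change, each tested by the interaction term. Among them 9 genes changed in opposite directions in the cultures by the tests within each culture, and 25 did with time changes from the fit of all 16 arrays. The interactions of the 9 were 2.55 for Fndc5 and 1.97 for Fam134b, -2.83 for Tbx2, -2.49 for Sncg, -2.27 for Fzd6, -2.27 for Sema6b, -2.26 for Ucp2, -2.08 for Gpr56 and -1.10 for Ehbp1.

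In 4 of 116 groups of 4 arrays checked among the named genes, 1 array stood far from the other 3 (Dixon's test at its 95% critical value), where chance gives about 1 in 20 groups. Pnmal2 measured 8.12 on dispersed 72-hr replicate 4, against 7.78 to 7.83 on the others. Plekhs1 measured 7.39 on myofiber-associated 72-hr replicate 1, against 5.89 to 6.01. Cmpk2 measured 7.94 on dispersed 48-hr replicate 4, against 7.31 to 7.35, and 5.21 on myofiber-associated 72-hr replicate 1, against 4.69 to 4.76. The interaction of Cmpk2 missed the threshold without either of its arrays (limma adjusted p = 0.0116 and 0.0109). It passed in 12 of the 16 fits that left out 1 array, so it was also lost without arrays that did not stand apart.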

How the results depend on the processing

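The count of 701 stayed within 1.5 times under normexp (692), quantile normalization without loess (672), the 75th percentile as the scale (594), the filter on signal above background (635), the mean of probes (692), slide row as a block (604), array weights (770) and a variance trend (834). With normexp the limit on low signal dropped no gene, so its 692 were of 34836 tested, and 553 of them were among the 701. The part of the larger number of tests in calls lost with normexp was not tested. With no filter on low signal 411 of 34836 genes were called (130 above and 281 below 0), with 216, 80 and 65 led by a rise and a fall in myofiber-associated and a fall in dispersed myoblasts. The authors' table gave 3823 (1645 above and 2178 below 0, and 1670, 1375, 270 and 508 in the patterns led by a rise and a fall in myofiber-associated and a rise and a fall in dispersed myoblasts), and its ratios leave out the 48-hr spread. Leaving out both myofiber-associated replicates 4 gave 4642 (2006 and 2636, and 2354, 1853, 153 and 282). Leaving out each array in turn gave 292 to 2357 genes, 82 to 1008 above and 210 to 1349 below 0, and 161 to 1104, 59 to 878, 20 to 130 and 47 to 245 in the patterns in that order. The lowest total was without dispersed 72-hr replicate 2 and the highest without myofiber-associated 48-hr replicate 4, and the cause was not tested. The share of called genes below 0 was 68.6%, against 57.0% in the authors' table, 57.2% without myofiber-associated 48-hr replicate 4 and 56.8% without both. The median interaction over all genes lay between -0.09 and -0.02 in every setting. With time changes from the fit of all 16 arrays, 55 of the 701 genes changed the same way in both cultures (97 otherwise), 25 in opposite directions (9), 92 in dispersed (185) and 496 in myofiber-associated myoblasts alone (233) and 33 in neither (177). With normexp the interactions of dim genes shrank, to 1.28 for Ppbp, -1.44 for Plekhs1 and -1.52 for Irf7. The mean of its probes gave 1.55 for Obsl1. No paired analysis was possible because the numbers in the labels run on through a culture's time points, so the groups compared share none.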

Other observations

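Families outside the lists, chosen after their values were seen, also held several called genes. Of 9 guanylate-binding proteins, interferon-induced GTPases, Gbp4 (interaction -2.64), Gbp11 (-2.37) and Gbp9 (-1.92) were called, with changes of -0.74 to -0.46 in dispersed and 1.18 to 1.92 in myofiber-associated myoblasts. Their sign in myofiber-associated myoblasts thus differed from that of Irf7. Of 10 genes of the Ly6 family of surface proteins, Ly6c1 (-1.83), Ly6a (-1.63) and Ly6g (-1.55) were called, with changes of -2.43 to -2.12 in dispersed and -0.71 to -0.57 in myofiber-associated myoblasts. Of 14 beta protocadherins, adhesion proteins of a gene cluster, all lay below 0 (median -0.999) and 5 were called. Of 45 histone genes 12 were called, 11 below 0, from Hist1h1b at -1.32 to Hist1h2ak at -0.39, and Hist2h3c2 above 0 at 2.17. Members of these families are close in sequence, and the part of cross-hybridization was not tested.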
